A study of Mus musculus with 8 samples.

Results

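The transcripts of the proteasome, the protease complex that breaks down ubiquitin-tagged proteins, were followed in liver RNA of mice on diets with a normal or a low content of amino acids. Genes were taken by symbol alone, by a rule that uses no measured values, though earlier results of these data were known when it was set. They were all genes listed as Psma, Psmb, Psmc, Psmd, Psme, Psmf or Psmg with a number, apart from the immunoproteasome subunits Psmb8, Psmb9 and Psmb10. The rule found 43 of the 11784 genes in the table, and the filter on low values removed none of them. Of the 43, 14 encode the core particle, 17 the regulatory particle, 7 assembly chaperones and 5 activators or an inhibitor. Psma8 and Psmb11, forms of testis and thymus, were looked for and are not among the genes listed. All animals were male C57BL/6J mice that were moved at 9 weeks of age from chow to a diet made from defined amino acids. For 4 months 4 mice ate the Control diet (TD.140711) and 4 the Low AA diet (TD.140712), in which carbohydrate takes the place of the amino acids left out. The livers were taken after an overnight fast of about 16 hours, which both groups shared, and poly(A) RNA was sequenced. Each mouse is 1 sample and is called by its code, F for Control and H for Low AA, and which mice shared a cage is not given.

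The core particle is a barrel of stacked rings. The outer rings are built of alpha subunits (Psma genes), which gate the entrance, and the inner rings of beta subunits (Psmb genes), among which Psmb5, Psmb6 and Psmb7 cut peptide bonds. The regulatory particle sits on the end of the barrel. Its base holds a ring of ATPases (Psmc genes) that unfold the substrate, and its lid holds Psmd14, the enzyme that removes ubiquitin. Most subunits are needed in equal numbers, and their genes are known to be induced together by the transcription factor NFE2L1 when proteasome activity falls short. In liver, the proteasome and the lysosome are the main routes by which protein is turned back into amino acids, which is why a diet poor in amino acids raises the question of their transcript levels.

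The table behaved as one of liver. All 8 hepatocyte markers looked for were listed, and Alb, which encodes albumin, had scaled counts of 1321262 to 1789498. The values are read counts that the authors scaled and rounded, here called scaled counts, and they summed to between 27876664 and 30799385 per mouse. Control mouse F2212 stood apart from the other mice in Cela1, a pancreatic elastase, with a scaled count of 36587 against 130 to 288 in the others, and in the acute-phase gene Saa1, with 57733 against 68 to 2818. Of the macrophage and Kupffer cell markers 7 were listed, and their summed scaled counts spanned 8484 to 11992 with Low AA feeding and 7839 to 12319 with Control feeding. All 7 had estimates above 0 with Low AA feeding, with a median log2 fold change of 0.21 and 0.61 for Marco at the top, and none passed the test. In whole tissue, fewer cells of a type and less RNA per cell cannot be told apart.

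RefSeq promoters on GRCm38.p6, the build that the submitters' processing notes call mm10, were given for 36 of the 43 genes, 39 promoters in all. In the 250 bases before the start site, on either strand, the core of the antioxidant response element (TGACNNNGC), the motif that NFE2L1 binds, was present in 5 of the 39, or 12.8%, against 11.7% of the promoters of all genes in the table. The ETS motif CCGGAAG was present in 13, or 33.3%, against 13.3%, and the CCAAT box in 12, or 30.8%, against 35.2%. Of all 32851 promoters in the RefSeq set, 10.2%, 6.9% and 33.8% held these motifs. A match describes letters and is not a measured binding site. The promoters shown are those that hold the NFE2L1 motif, so that the subunits which carry it can be read beside their values. Capitals mark that motif and, in Psmc6 and Psmd12, also the ETS motif, and the last base of each is the one before the start site.
Psmb5, chr14:54617996-54618245, minus strand: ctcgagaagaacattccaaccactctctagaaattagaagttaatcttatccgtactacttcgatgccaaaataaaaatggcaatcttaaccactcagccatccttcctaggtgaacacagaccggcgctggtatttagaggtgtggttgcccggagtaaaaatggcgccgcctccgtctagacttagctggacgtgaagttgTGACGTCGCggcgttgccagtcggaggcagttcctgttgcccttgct
Psmb6, chr11:70525107-70525356, plus strand: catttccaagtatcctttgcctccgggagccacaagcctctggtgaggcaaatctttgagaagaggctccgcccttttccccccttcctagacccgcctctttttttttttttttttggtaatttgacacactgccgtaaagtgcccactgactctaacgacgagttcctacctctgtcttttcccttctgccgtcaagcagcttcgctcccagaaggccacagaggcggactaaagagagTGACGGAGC
Psmc6, chr14:45329574-45329823, plus strand: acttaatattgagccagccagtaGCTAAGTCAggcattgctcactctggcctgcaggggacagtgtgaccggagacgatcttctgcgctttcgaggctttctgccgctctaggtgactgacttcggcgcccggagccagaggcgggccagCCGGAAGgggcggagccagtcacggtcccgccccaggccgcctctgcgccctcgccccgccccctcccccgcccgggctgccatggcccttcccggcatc
Psmd12, chr11:107479278-107479527, plus strand: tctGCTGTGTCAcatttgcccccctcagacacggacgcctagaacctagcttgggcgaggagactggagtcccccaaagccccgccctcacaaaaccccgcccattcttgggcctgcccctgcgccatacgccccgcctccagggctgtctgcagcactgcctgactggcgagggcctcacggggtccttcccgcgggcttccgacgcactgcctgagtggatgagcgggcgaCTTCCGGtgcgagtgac
Psmd9, chr5:123227940-123228189, plus strand: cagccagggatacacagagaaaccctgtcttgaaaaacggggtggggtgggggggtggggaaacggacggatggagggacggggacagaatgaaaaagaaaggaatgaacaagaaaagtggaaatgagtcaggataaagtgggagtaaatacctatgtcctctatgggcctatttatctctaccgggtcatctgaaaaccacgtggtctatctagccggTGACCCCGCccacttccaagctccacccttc
In Psmb5 the motif is TGACGTCGC, 47 to 39 bases before the start site, and in Psmb6 it is TGACGGAGC, 9 to 1 bases before it. In Psmc6 and Psmd12 it lies on the other strand and farther out, 227 to 219 and 247 to 239 bases before the start site.

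The first question was whether the diet low in amino acids changed the transcript of any proteasome gene. None of the 43 genes passed an adjusted p under 0.05 in either direction, where 0.399% of all genes tested did, 0.102% higher and 0.297% lower in the Low AA mice. Without adjustment none had a limma p under 0.05 either, against 11.8% of all genes, and in none did the mice of the diets fail to overlap, against 6.81% of all genes. The log2 fold changes, Low AA against Control on the scale of log2(scaled count + 1), ran from -0.22 for Psme4 to 0.16 for Psmd4. Their median was -0.049, with 28 genes below 0 and 15 above, and over all genes the median was 0.0023 with 49.5% below 0. The median size without sign was 0.076 among the 43 genes and 0.14 over all genes. The median standard error was 0.11 among the 43 genes and 0.15 over all genes. Neither these sizes nor the intervals below were matched for expression level. The 95% interval of the difference lay within 0.5 of 0 on the log2 scale for 42 of the 43 genes, and for 51.9% of all genes. The exception was Psmg4, the least abundant of the 43, whose interval reached 0.60. Without Control mice F2212 and F7111 there were still 0 calls among the 43 genes by limma, and 1 gene with an unadjusted p under 0.05, against 11.5% of all genes.

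**Figure D1:**
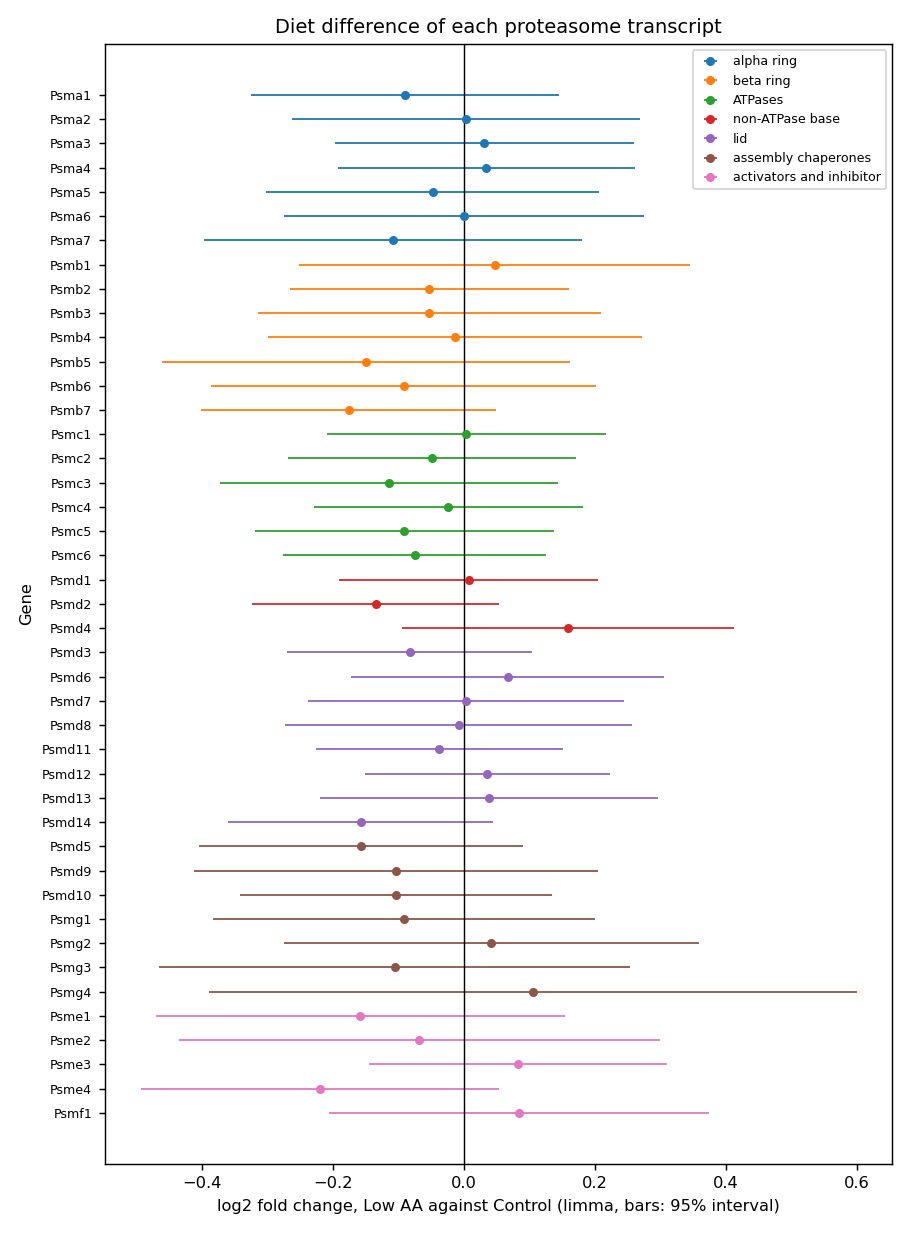
The horizontal axis gives the log2 fold change of each proteasome gene, Low AA against Control with 4 mice each, and the bars are 95% intervals from limma; colors mark the role in the complex. Every interval crosses 0, and the estimates run from -0.22 for Psme4 to 0.16 for Psmd4.

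In the core particle, the alpha subunits had a median log2 fold change of -0.00059 and the beta subunits one of -0.053, with 3 of 7 and 1 of 7 genes above 0. Within the alpha ring the estimates ran from -0.11 for Psma7 to 0.033 for Psma4. Psma7 averaged 2869 ± 339 scaled counts in the livers of Low AA mice and 3103 ± 444 in those of Control mice (SD, n = 4 mice per diet), and Psma4 had 3161 ± 164 and 3100 ± 344. Both differences were smaller than the spread between the mice of a diet. Psmb7, which carries the trypsin-like active site, had the lowest estimate of the core. Its scaled counts were 3312, 3520, 3308 and 3781 in Low AA mice H1126, H828, H817 and H1315, and 4164, 4370, 3448 and 3793 in Control mice F129, F2212, F7111 and F2110. Control mouse F7111 lay inside the Low AA range and the other Control mice above it. The log2 fold change of Psmb7 was -0.18 (standard error 0.10, 95% interval -0.40 to 0.049, limma adjusted p = 0.553). Psmb5, which carries the chymotrypsin-like site and is the subunit that bortezomib blocks, had 2079, 2556, 2241 and 2629 in the Low AA mice and 2984, 2928, 2008 and 2702 in the Control mice, in the same order. The lowest of all 8 values was that of Control mouse F7111. Its log2 fold change was -0.15 (95% interval -0.46 to 0.16, limma adjusted p = 0.753), and without F7111 it was -0.28. Psmb6, which carries the caspase-like site, had 3126 ± 235 with Low AA feeding and 3367 ± 604 with Control feeding (SD, n = 4 mice per diet), a log2 fold change of -0.093 (95% interval -0.39 to 0.20). Thus all 3 active-site subunits had estimates below 0 and none of them passed the test. Psmb1, a beta subunit with no active site, had the only estimate above 0 in the beta ring, 0.046, which was -0.066 without F7111.

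In the regulatory particle, 17 genes had a median log2 fold change of -0.024, with 7 above 0 and 10 below. The 6 ATPases ran from -0.11 for Psmc3 to 0.0035 for Psmc1, and for Psmc1 the diet means were 4120 ± 287 and 4113 ± 327 scaled counts (SD, n = 4 mice per diet). Psmd4, a subunit that binds ubiquitin chains, had the highest estimate of all 43 genes. Its scaled counts were 4300, 4866, 4623 and 4457 in Low AA mice H1126, H828, H817 and H1315, and 4761, 4441, 3471 and 3783 in Control mice F129, F2212, F7111 and F2110. The range of the Control mice covered most of that of the Low AA mice, and the log2 fold change was 0.16 (standard error 0.11, 95% interval -0.095 to 0.41, limma adjusted p = 0.659). Psmd2, the large scaffold of the base that docks substrate shuttles, had 5704, 6353, 5946 and 6099 in the Low AA mice and 7062, 6551, 6555 and 6308 in the Control mice. Only H828 and F2110 crossed. The log2 fold change was -0.14 (95% interval -0.32 to 0.053, limma adjusted p = 0.599), with an exact permutation test, two-sided, at p = 0.0571, where the smallest that 4 mice against 4 allow is 0.0286. Psmd14, the deubiquitinating enzyme of the lid, showed the same near-separation. It had 1425, 1596, 1425 and 1530 in the Low AA mice and 1834, 1587, 1598 and 1653 in the Control mice, and only H828 and F2212 crossed. The log2 fold change was -0.16 (95% interval -0.36 to 0.044, limma adjusted p = 0.554, exact permutation test, two-sided, p = 0.0571). The other lid genes ran from -0.083 for Psmd3 to 0.067 for Psmd6, which had 2321 ± 171 with Low AA feeding and 2222 ± 244 with Control feeding (SD, n = 4 mice per diet). Psmc6 and Psmd12, whose promoters are printed above, had log2 fold changes of -0.076 and 0.036.

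The proteins that build the complex and those that cap it were measured too. Of the 7 assembly chaperones, 5 had estimates below 0, and they ran from -0.16 for Psmd5, a chaperone of the base, to 0.10 for Psmg4, a chaperone of the alpha ring. Psmd5 had 756 ± 63.0 scaled counts with Low AA feeding and 845 ± 96.9 with Control feeding (SD, n = 4 mice per diet, limma adjusted p = 0.653). Psmg4 had only 72 to 121 and 63 to 116, and without Control mouse F7111 its estimate was -0.074. Psmd9, a base chaperone with the NFE2L1 motif, had a log2 fold change of -0.10. Psme4, which encodes PA200, a cap of the core particle linked to the breakdown of acetylated histones, had the lowest estimate of the 43 genes and the smallest p. Its scaled counts were 3530, 4427, 3632 and 3635 in Low AA mice H1126, H828, H817 and H1315, and 4351, 3690, 5206 and 4550 in Control mice F129, F2212, F7111 and F2110. H828 lay among the Control mice and F2212 among the Low AA mice. The log2 fold change was -0.22 (standard error 0.12, 95% interval -0.49 to 0.053, limma adjusted p = 0.539). Psme1, a subunit of the interferon-inducible cap PA28, had 1622 ± 142 with Low AA feeding and 1832 ± 359 with Control feeding (SD, n = 4 mice per diet, log2 fold change -0.16, limma adjusted p = 0.736), and the highest value, 2290, was in F2212. Psmf1, which encodes the inhibitor PI31, had 1066 ± 178 and 997 ± 75.0 (SD, n = 4 mice per diet), a log2 fold change of 0.084.

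The second question was whether the core and the regulatory particle differed in their response. The mean log2 level over the 14 core genes minus that over the 17 genes of the regulatory particle was -0.095, -0.16, -0.15 and -0.030 in Low AA mice H1126, H828, H817 and H1315. It was -0.066, 0.044, -0.23 and -0.088 in Control mice F129, F2212, F7111 and F2110. The lowest and the highest value of the 8 were both Control mice, and the Low AA mice lay between them. It averaged -0.11 ± 0.058 with Low AA feeding and -0.086 ± 0.11 with Control feeding (SD, n = 4 mice per diet), a difference of -0.021 for which no p is given, since it is a score over chosen genes. Without F2212 this difference was 0.023 and without F7111 it was -0.070. On the values as deposited the difference was smaller than the spread among mice of 1 diet, and its sign depended on single mice.

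The proteasome genes differed more between mice of the same diet than between the diets. Control mouse F7111 had the lowest value in 11 of the 14 core genes, and Control mouse F2212 had the highest in 10 of them. In the mean over the core, taken as the deviation from each gene's mean over the 8 mice on the log2 scale, F7111 was at -0.24, F2110 at -0.017, F129 at 0.15 and F2212 at 0.21. The Low AA mice were at -0.13 for H1126, -0.048 for H817, -0.016 for H828 and 0.10 for H1315, inside the range of the Control mice. In the regulatory particle the lowest mouse was most often H1126, in 10 of 17 genes, and the highest was F129, in 8. There the Control mice ran from -0.11 to 0.12 and the Low AA mice from -0.14 to 0.044, so F7111 and F2212 stood less far out than in the core.

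**Figure D2:**
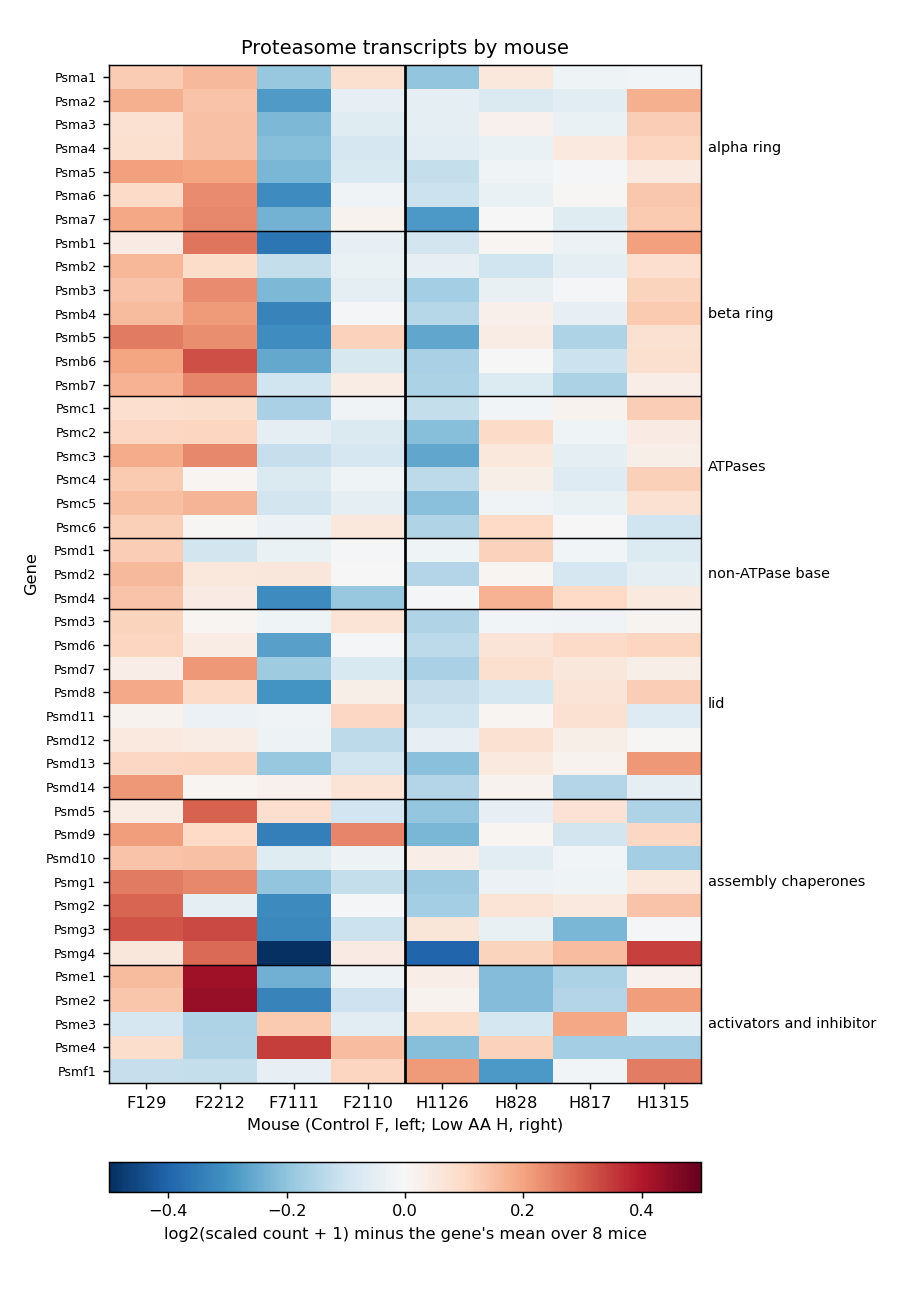
Each row is a proteasome gene, grouped by role, and each column a mouse; the color gives log2(scaled count + 1) minus the mean of that gene over the 8 mice. Control mouse F7111 is low in the core genes, where it is the lowest mouse in 11 of 14, and F2212 is high, while Psme4 shows the opposite order.

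The differences of F7111 and F2212 from the other mice went with transcript length over the whole table. The core genes have short transcripts, with a median of 1163 bases in the GENCODE annotation of GRCm38, against 1636 for the regulatory particle and 2997 for all 11666 genes with a length. Among the 678 other genes with transcripts under 1000 bases, the median deviation was -0.30 in F7111 and 0.24 in F2212, and between -0.071 and 0.16 in the other 6 mice. Among the 3732 other genes with transcripts of at least 4000 bases the order turned, with 0.16 in F7111 and -0.20 in F2212. Psme4, whose transcript of 6491 bases is the longest of the 43, was at its highest in F7111 and low in F2212. When every mouse was centred within 10 bins of transcript length, a step added after the values were seen, the core means spanned -0.023 to 0.062 among Control mice and -0.095 to 0.048 among Low AA mice. The SD of the core mean over the Control mice was 0.20 before and 0.038 after, and over the Low AA mice 0.098 and 0.059. For the regulatory particle the SD was 0.099 before and 0.048 after over the Control mice, and 0.083 and 0.088 over the Low AA mice. After centring H1126 was the lowest mouse in both means, at -0.095 in the core and -0.11 in the regulatory particle. The diet difference of the core mean was -0.048 before and -0.047 after, and that of the regulatory particle -0.027 before and -0.0058 after. The core minus the regulatory particle then differed between the diets by -0.041, slightly more than the SD of 0.036 among the mice of either diet, where it had differed by -0.021 before. None of the 43 genes was called after centring either. Psme4 then had a log2 fold change of -0.27 (95% interval -0.47 to -0.075, limma adjusted p = 0.180) and Psmb7 one of -0.18 (95% interval -0.33 to -0.021, limma adjusted p = 0.268), the only members with an unadjusted p under 0.05, against 15.1% of all genes. What made the mice differ by length, in the tissue or in the libraries, was not tested.

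**Figure D3:**
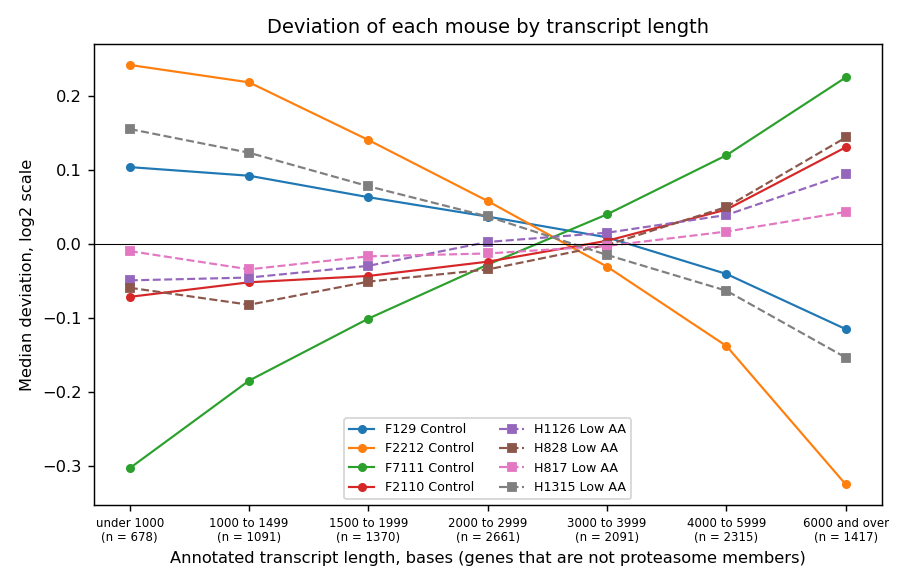
The horizontal axis gives the transcript length of genes that are not proteasome members, in bins, and the vertical axis the median deviation of each mouse from the mean of 8 mice, on the log2 scale. F7111 runs from -0.30 under 1000 bases upward and F2212 from 0.24 downward, with the other mice between them in the shortest bin.

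**Figure D4:**
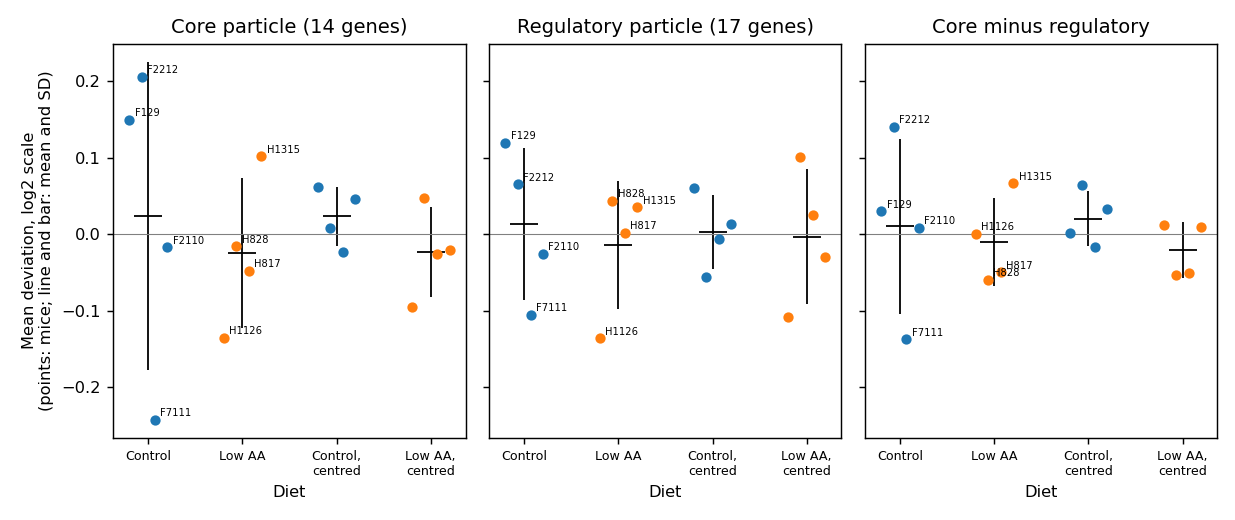
Points are mice and lines with bars are the mean and SD of 4 mice, for the mean deviation of the core genes, the regulatory particle genes and their difference on the log2 scale, as deposited and after centring by transcript length. The Control mice spread from -0.24 to 0.21 in the core as deposited and from -0.023 to 0.062 after centring.

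Levels of different genes were compared as scaled counts per kilobase of annotated transcript, averaged over the 8 mice. The median was 2743 per kilobase for the core genes and 1638 for the regulatory particle. Psmb6 was the highest of all, at 3917 ± 294 with Low AA feeding and 4220 ± 757 with Control feeding (SD, n = 4 mice per diet), and was followed by Psma6 at 3631 ± 260 and 3661 ± 574. In every mouse Psmb6 was above Psma6, by 113 to 776 per kilobase, a difference that depends on the annotated lengths. Psmd4 was the highest gene of the regulatory particle, at 3425 ± 182 and 3089 ± 444, and Psmd11, a lid subunit, the lowest, at 948 ± 52.0 and 973 ± 41.2. At the low end of the core lay Psma2 and Psma3, with means of 784 and 1250 per kilobase. Their annotated transcripts of 2911 and 2846 bases are the longest of the core, so their place depends on how much of that length the liver transcript has. The assembly chaperones were lower, with a median of 273 per kilobase, and only Psmd9, at 1047, reached the range of the particles. The activators and the inhibitor ran from 271 for Psmf1 to 1553 for Psme1.

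**Figure D5:**
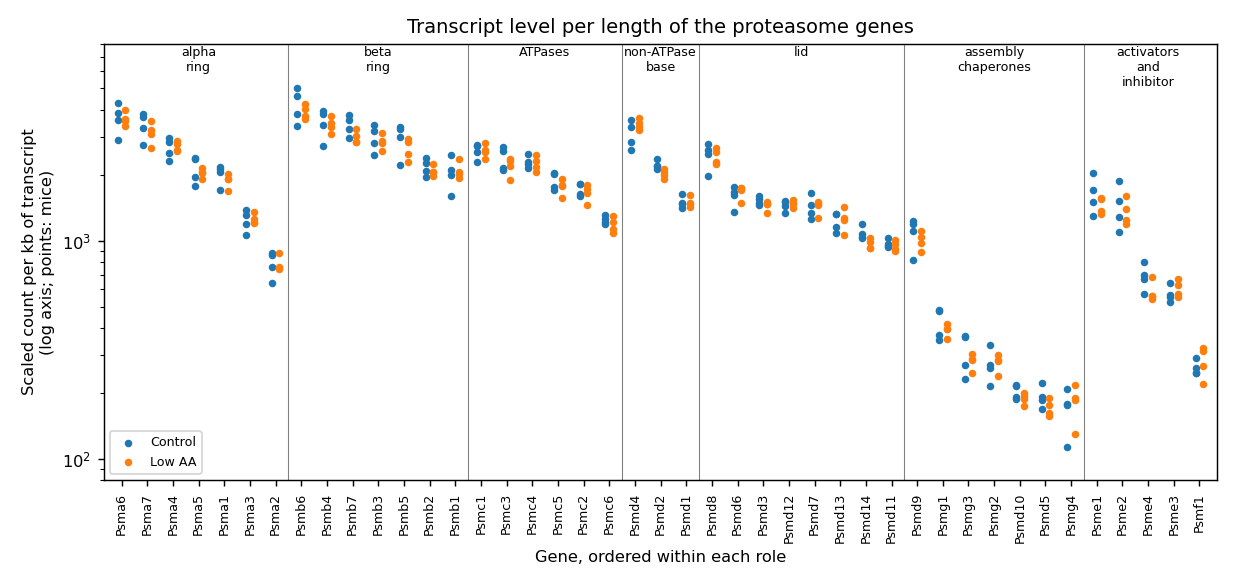
The vertical axis gives scaled counts per kilobase of annotated transcript on a log axis, with a point for each Control and each Low AA mouse, and the genes are ordered by level within each role. The points of the diets overlap in every gene, and the median of the assembly chaperones, 273, lies below the medians of the particles, 2743 and 1638.

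The 3 immunosubunits left out by the rule replace Psmb5, Psmb6 and Psmb7 in cells exposed to interferon and in immune cells. All 3 had estimates below 0 and none passed the test. Psmb9 had scaled counts of 211, 188, 216 and 226 in Low AA mice H1126, H828, H817 and H1315, and 526, 360, 177 and 412 in Control mice F129, F2212, F7111 and F2110. The Low AA mice were nearly equal, and F7111 lay below them while the other Control mice lay well above. The log2 fold change of Psmb9 was -0.71 (standard error 0.28, limma adjusted p = 0.342), and without F7111 it was -1.02 (limma adjusted p = 0.0298). That was the only fit leaving out 1 mouse in which Psmb9 passed, and F7111 had its lowest value. Centred by transcript length, its log2 fold change was -0.68 (limma adjusted p = 0.224). Psmb8 had 454 ± 93.5 with Low AA feeding and 568 ± 122 with Control feeding (SD, n = 4 mice per diet, log2 fold change -0.32, limma adjusted p = 0.585), and Psmb10 had 280 ± 25.7 and 339 ± 88.8 (log2 fold change -0.25, limma adjusted p = 0.646). Control mouse F2212 had the highest value of both, 689 for Psmb8 and 465 for Psmb10. With a mouse left out Psmb8 ran from -0.47 to -0.18. Psmb10 ran from -0.34 to -0.083, the latter without F2212. Per kilobase, Psmb9 stood at 3.44% to 4.32% of Psmb6 with Low AA feeding and at 3.87% to 8.40% with Control feeding. Psmb8 stood at 7.13% to 14.6% of Psmb5 over the 8 mice, and Psmb10 at 6.41% to 9.42% of Psmb7. On chromosome 17 the start site of Psmb9, at 34187764 on the minus strand, lies 211 bases from that of Tap1, a peptide transporter of antigen presentation, on the plus strand. The start of Tap1, at 34187553, has the lower coordinate, so the annotated genes overlap there. Tap1 had 478 ± 118 with Low AA feeding and 811 ± 176 with Control feeding (SD, n = 4 mice per diet, log2 fold change -0.76, limma adjusted p = 0.147), and it was named after its values were seen. None of the 12 genes of antigen presentation and the interferon response passed. Unadjusted, 4 had a limma p under 0.05, against 11.8% of all genes. In 2, Tapbp and B2m, the diets did not overlap, both lower with Low AA feeding, against 6.81% of all genes. Estimates were below 0 for 8. The 4 above 0 were Cd74 (0.28), H2-Aa (0.29), H2-Ab1 (0.38) and H2-Eb1 (0.29). Control mouse F2212 had the highest value in each of these 4, in Cd74 4549 against 1629 to 1739 in the other Control mice. Without F2212 their estimates were 0.65, 0.67, 0.79 and 0.69, in the same order. The summed scaled counts of the 12 spanned 62076 to 80672 with Low AA feeding and 78861 to 104547 with Control feeding. B2m, H2-K1 and H2-D1 had the highest counts among them. The macrophage markers given above had estimates above 0, opposite in sign to those of the immunosubunits. The part of those genes and of such cells in the values of the immunosubunits was not tested.

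Genes outside the symbol rule that act on the proteasome or, as Adrm1 does, belong to it also held no call. Of 11 measured genes for NFE2L1, the activator of proteasome genes, its relative NFE2L2 and the proteins that extract and process them, 0 passed in either direction by limma, with 1 unadjusted p under 0.05, that of Nfe2l1 itself, against 11.8% of all genes. In 2 of the 11 the diets did not overlap, against 6.81% of all genes, Nfe2l1 upward and Ubxn4, an anchor of the extraction machinery in the endoplasmic reticulum, downward (log2 fold change -0.21, limma adjusted p = 0.453), the latter named after its values were seen. Nfe2l1, on chromosome 11 from 96817414 to 96829968, had scaled counts of 6270, 7167, 7257 and 5581 in Low AA mice H1126, H828, H817 and H1315, and 5036, 4611, 4599 and 4425 in Control mice F129, F2212, F7111 and F2110. Every Low AA mouse lay above every Control mouse. The log2 fold change was 0.49 (standard error 0.11, 95% interval 0.25 to 0.72), and the adjusted p of 0.0917 by limma did not pass the threshold. A two-sided exact permutation test gave p = 0.0286, the least that this design allows. Beside it, the members with its motif in the promoter had log2 fold changes of -0.15 for Psmb5, -0.093 for Psmb6, -0.076 for Psmc6, -0.10 for Psmd9 and 0.036 for Psmd12. The motif occurred in 12.8% of the member promoters, against 11.7% of those of all genes in the table, so a match does not mark a target. NFE2L1 protein was not measured, and its action on these genes was not tested. Of 18 proteasome-associated factors none passed, with 6 above 0 and 12 below and a median of -0.034. Unadjusted, 1 had a limma p under 0.05, against 11.8% of all genes. It was Ubqln2 (log2 fold change -0.39, 95% interval -0.65 to -0.13, limma adjusted p = 0.199), named after its values were seen. Among the 18, Pomp, the chaperone that closes the assembly of the core, had 2187 ± 146 with Low AA feeding and 2462 ± 529 with Control feeding (SD, n = 4 mice per diet, log2 fold change -0.15, limma adjusted p = 0.771), and Adrm1, a ubiquitin receptor of the regulatory particle, had 2083 ± 173 and 2118 ± 105 (log2 fold change -0.026). The estimate for Ubb, which encodes polyubiquitin, was 0.12 on the log2 scale, with an adjusted p of 0.747 by limma.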

How the data were processed

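Liver RNA of 4 Low AA and 4 Control mice had been sequenced, and 1 deposited table held the values. Its values are a signal, read counts that the authors scaled between mice and rounded to whole numbers; the scaling is not stated. The submitters' processing notes name STAR 2.5.0a, RSEM 1.2.6, edgeR 3.10.5 and mm10. The authors' own fold changes and FDR in that table were not used. Every gene had at least 28 in 3 mice, so genes of low expression are absent. Because the values are scaled, no count model was used and the exact depth is unknown. The test was limma 3.58.1 (R 4.3.3) on log2(value + 1), its prior variance following the mean, and p-values of all 11784 genes were adjusted together by Benjamini-Hochberg, with a threshold of 0.05. The added 1 shrinks fold changes where values are low. A minimum of 1 in 4 or more mice took out 0 genes. Transcript lengths were those of the longest APPRIS principal transcript in GENCODE, matched for 99.0% of genes. The script was tested on simulated data. The members and lists were chosen with earlier results of these data known, so members are described by counts and medians.

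Genes given by their values in the text were the 8 members with the smallest p, the highest and lowest log2 fold change in each role, the active-site subunits, Psmd4, Psmd14, the immunosubunits, Pomp, Adrm1, Nfe2l1 and Ubb. A further gene of this rule is not reported here. Other genes were named after their values were seen. Alternatives were other pseudocounts, column scalings, moderation, filters and thresholds, and each mouse left out in turn, with centring by transcript length and the loss of 2 Control mice added after the values were seen. Figures were drawn with matplotlib 3.10.9.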

Additional observations from a re-analysis of the deposited data

Results flagged for a closer look

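In 106 groups of 4 mice, over the 43 proteasome genes, 7 further genes and 3 means, a mouse was looked for that lay far from the other 3 of its diet, and 2 such mice were found, where chance gives about 1 in 20 groups. In Psme4, Low AA mouse H828 was higher than the rest of its diet, at 12.11 on the log2 scale against 11.79 to 11.83 (gap over range 0.871), and without it the log2 fold change of Psme4 was -0.30. Low AA mouse H1315 stood above in Psma2, at 11.33 against 11.08 to 11.10 (gap over range 0.897).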

How the results depend on the processing

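The count of proteasome genes called was 0 in limma under every alternative run, and at most 3 of the 43 had an unadjusted p under 0.05, without Control mouse F7111, where 13.3% of all genes did. Over the fits that leave out a mouse, the median log2 fold change ran from -0.11 to -0.012 over the 43 genes, from -0.13 to 0.013 over the core and from -0.056 to 0.015 over the regulatory particle, and the core minus the regulatory particle from -0.070 to 0.023. The number of all genes called, 47, was 19 among the 8000 genes with the highest mean, 30 without a mean-variance trend, 132 at an adjusted p under 0.1 and 117 after centring by transcript length, and from 16 to 77 with a mouse left out (77 without F2212, 29 without F129, 16, 19 and 21 without H817, H828 and H1126). Nfe2l1 passed at an adjusted p under 0.1. Psmb9, the immunosubunit, passed in 1 fit that leaves out a mouse, the one without F7111, which had its lowest value. It also passed without both F2212 and F7111 (log2 fold change -1.15, limma adjusted p = 0.0257). Signs of small estimates changed. With a mouse left out Psmc1 ran from -0.050 to 0.044, Psmb1 from -0.066 to 0.14, Psma4 from -0.032 to 0.088, Psmd6 from -0.013 to 0.12, Psmg4 from -0.074 to 0.25 and Adrm1 from -0.060 to 0.034. Adrm1 was at 0.00033 after centring by length, and without F2212 and F7111 Psmc1 was at -0.030, Psmd6 at -0.018 and Adrm1 at 0.015. The causes were not tested. No paired analysis was possible because no mouse code of 1 diet recurs in the other. The depth of each library is unknown, and with 4 mice a diet the intervals above show what size of difference could be seen.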
